A study of Homo sapiens with 4 samples.

Results

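The semaphorins, plexins, netrins and slits with their receptors form the main families of axon guidance cues, and they were followed here in a human breast cancer cell line transfected with a transcription factor. Members were the genes whose probe sets carry a single symbol of the SEMA, PLXN, NTN, UNC5 or SLIT families, plus ROBO1, ROBO2, DCC, NEO1 and RGMB. With 1 probe set per gene, the one with the highest mean signal, this gave 47 of 18417 measured genes: 19 semaphorins, 9 plexins, 14 genes of the netrin family and 5 slits and robos. SLITRK genes were not members, and UNC50, which shares only letters with the UNC5 receptors, was left out. The samples were 2 cultures of MDA-MB-231 cells transfected with a FOXC1 plasmid and 2 transfected with the vector, which the labels call biological replicates. MDA-MB-231 is a triple-negative, mesenchymal-like breast cancer line, and FOXC1 is a forkhead transcription factor tied to basal-like breast cancer. All 4 cultures were grown in DMEM with 10% FBS and received plasmid with the same lipid reagent. Whether the cells were pools or clones, and how long after transfection they were harvested, stays unstated in the labels.

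Semaphorins are secreted or membrane-bound ligands, and most of them signal through plexins. The secreted class 3 semaphorins mostly need a neuropilin as co-receptor. Plexins can collapse a growth cone or loosen cell adhesion. Secreted netrins bind DCC, neogenin (NEO1) and the UNC5 receptors, and neogenin is also the receptor of the repulsive guidance molecules. Slits bind the Robo receptors and usually repel. Outside the nervous system the same families are studied in vessel growth and in the migration and invasion of carcinoma cells.

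RNA of the 4 cultures was hybridised to whole-transcript Affymetrix arrays, and the deposited values are linear PLIER signals, a summary of the probes of each gene in arbitrary units. The median signal per array lay between 489 and 512, and the Pearson correlation of log2 signal over all probe sets was 0.997 within each group and 0.992 between the groups. Differences were computed on log2(signal + 16), tested with limma across 21214 probe sets and called at a Benjamini-Hochberg adjusted p of 0.05. The number of arrays limits the precision, and the spread between arrays of a group may be technical. The p-values rest mostly on a variance shared by probe sets of similar signal, with 18.1 prior against 2 residual degrees of freedom. Members whose higher group mean was below 277, the 25th percentile of tested probe sets, are called dim below. Of the basal-like line's markers 6 were measured, all above the dim limit, and 4 were lower and 2 higher in FOXC1 cells. Of all genes above that limit 38.9% passed the test. Vimentin (VIM), a mesenchymal filament protein, had 16017 and 16478 in FOXC1 cells, against 16740 and 17018 in vector cells. Among luminal epithelial markers the oestrogen receptor ESR1 was dim, whereas keratin KRT19 had 3932 and 3747 in FOXC1 cells, against 4585 and 4496 in vector cells. The adhesion molecule EPCAM had 681 and 660 in FOXC1 cells, against 1041 and 979 in vector cells. CDH1, of the same list, lay near the dim limit with 273 and 287 in FOXC1 cells, against 270 and 277 in vector cells. It did not pass, nor did ERBB3 (log2 0.005), and PGR was dim. Of the 8 luminal markers 4 were lower, KRT19 and EPCAM among them, and 0 higher. FOXC1 was not analysed here, and the transfection labels rest on the submitters alone. In such bulk samples fewer cells of a type and less RNA per cell cannot be told apart.

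Of the 47 members 23 passed the test, 8 higher and 15 lower in FOXC1 cells. That is 48.9% of members, beside 31.4% of all genes (5777 of 18417). By direction, 17% of members rose, beside 15.9% of all genes, and 31.9% of members fell, beside 15.5% of all genes. The 4 members that changed at least 2-fold were SEMA5A and ROBO2, which rose, and NEO1 and SEMA3F, which fell, whereas 0.961% of all genes passed at that size. The 2 groups did not overlap in 34 of 47 members (72.3%, beside 63.5% of all genes). In members that passed, a lack of overlap is no further support, since the same arrays gave the test. Of the 41 members above the dim limit 20 passed, beside 38.9% of all genes above it. The balance of directions depended on scaling. It was 6 higher and 18 lower when each array was centred on its median, and 10 higher and 15 lower when it was centred on the median of the named probe sets, while all genes stood at 2925 higher and 2852 lower as deposited, 1739 and 3396 with the first and 3758 and 2543 with the second centring. Without vector replicate 1 the count of members that rose was 5, and without vector replicate 2 it was also 5.

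**Figure D1:**
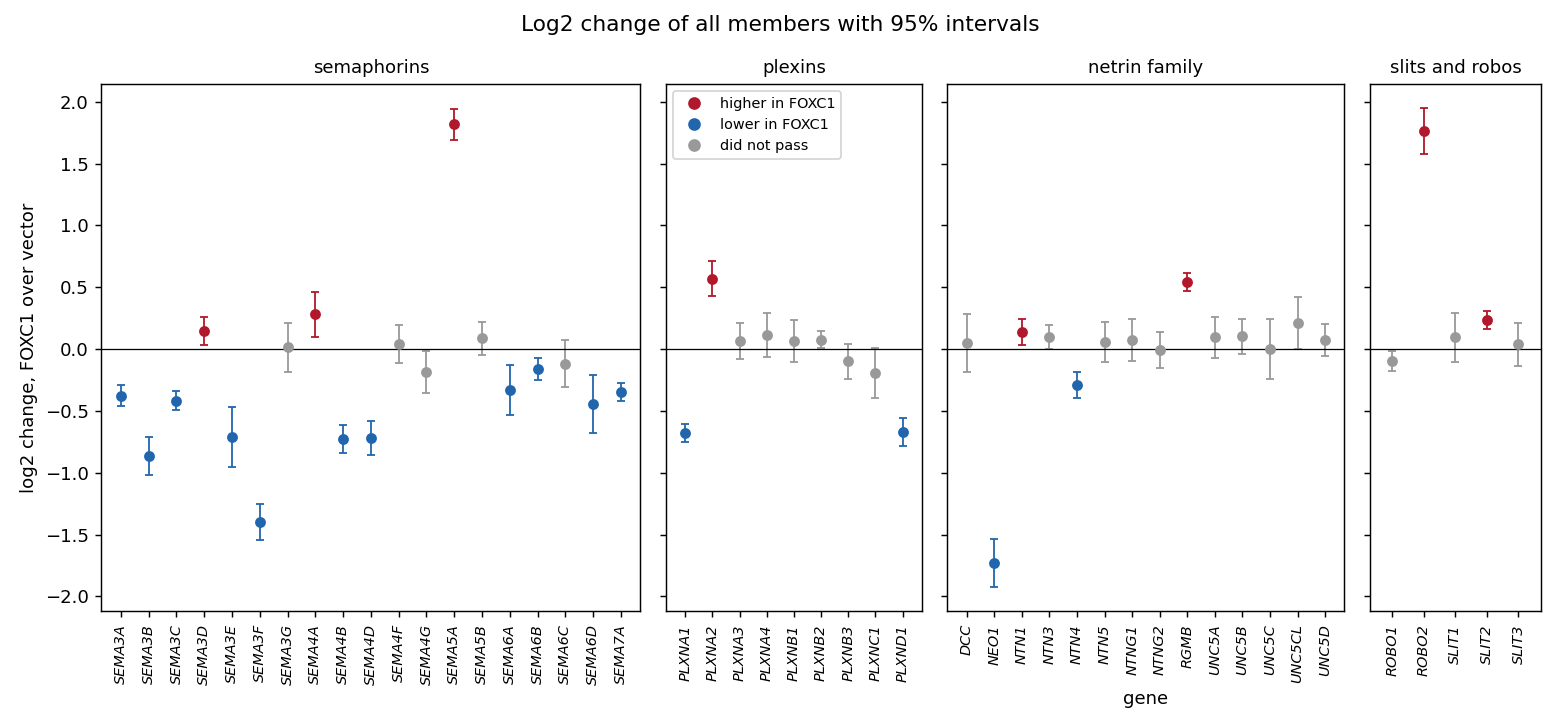
Log2 change of FOXC1 over vector cells (vertical axis) for all 47 members by family, points with 95% intervals from limma, red for higher, blue for lower and grey for genes that did not pass. SEMA5A and ROBO2 stand highest at 1.82 and 1.76, and NEO1 and SEMA3F lowest at -1.73 and -1.40.

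The promoters of these 4 genes are shown because they head the list in each direction, with the 250 bases before and the 50 after a RefSeq transcription start (GRCh38.p14, read 5′ to 3′ on the gene's strand, capitals marking CG dinucleotides). For genes with several starts the most upstream one in the table was taken. The windows are chr5:9546026-9546325 on the minus strand for SEMA5A, chr3:76310630-76310929 on the plus strand for ROBO2, chr15:73051652-73051951 on the plus strand for NEO1 and chr3:50154808-50155107 on the plus strand for SEMA3F.
SEMA5A: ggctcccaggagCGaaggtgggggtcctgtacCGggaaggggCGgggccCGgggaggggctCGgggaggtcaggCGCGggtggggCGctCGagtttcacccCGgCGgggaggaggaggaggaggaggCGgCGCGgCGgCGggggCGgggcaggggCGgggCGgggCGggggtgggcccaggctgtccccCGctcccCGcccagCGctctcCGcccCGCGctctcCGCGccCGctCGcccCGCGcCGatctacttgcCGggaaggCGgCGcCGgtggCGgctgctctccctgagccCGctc
ROBO2: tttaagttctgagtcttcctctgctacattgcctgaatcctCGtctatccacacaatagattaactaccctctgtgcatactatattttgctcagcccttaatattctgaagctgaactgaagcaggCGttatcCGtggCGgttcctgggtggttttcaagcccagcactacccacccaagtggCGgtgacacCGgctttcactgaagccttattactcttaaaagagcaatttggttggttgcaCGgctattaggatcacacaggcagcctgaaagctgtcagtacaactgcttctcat
NEO1: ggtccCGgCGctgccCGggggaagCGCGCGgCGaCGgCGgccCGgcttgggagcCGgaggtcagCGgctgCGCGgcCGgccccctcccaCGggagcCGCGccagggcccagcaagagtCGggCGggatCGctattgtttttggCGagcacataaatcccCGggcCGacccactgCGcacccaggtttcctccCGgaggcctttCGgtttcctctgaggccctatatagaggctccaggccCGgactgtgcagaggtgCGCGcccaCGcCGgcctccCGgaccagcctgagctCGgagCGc
SEMA3F: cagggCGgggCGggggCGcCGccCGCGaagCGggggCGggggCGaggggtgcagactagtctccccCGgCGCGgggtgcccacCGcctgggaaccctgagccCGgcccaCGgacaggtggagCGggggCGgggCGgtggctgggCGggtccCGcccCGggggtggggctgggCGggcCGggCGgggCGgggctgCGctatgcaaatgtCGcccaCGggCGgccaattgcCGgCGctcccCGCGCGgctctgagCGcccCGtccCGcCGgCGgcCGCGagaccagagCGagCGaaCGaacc
These windows held 39 CG dinucleotides in SEMA5A, 7 in ROBO2, 35 in NEO1 and 44 in SEMA3F, against a median of 21 over the 20107 windows of measured genes. The count depends on the start chosen. A second ROBO2 window (chr3:77039849-77040148) held 31, and 2 further SEMA3F windows held 47 and 2, while SEMA5A and NEO1 had 1 window each.

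Forkhead factors bind sites with a core close to the letters GTAAACA, the variant GTAAATA or the further variant ATAAACA. These 3 strings were searched on both strands of the 67 promoter windows available for 39 members, with overlaps allowed. A match stood in 10.4% of member windows, in 7.36% of windows of measured genes and in 9.76% of all 35116 windows. By gene, 12.8% of the 39 members and 9.48% of measured genes had one. Members had 67 windows for 39 genes and measured genes 20107 for 14237, so more letters were searched per member. The 4 windows printed above had none, which says only that these letters are not in them. Among members that passed the test, matches stood in SEMA3C, SEMA3D, SEMA3E and SEMA4B, 3 of which fell and 1 of which, SEMA3D, rose. That is 25% of the 12 members with a window that fell and 14.3% of the 7 that rose. The 12 had 26 windows, 19.2% of them with a match, and the 7 had 13 windows, 7.69% with a match. SEMA5B, which did not pass, held a match as well. The following stretches of 41 bases show 4 of these matches in capitals, 1 per gene (GRCh38.p14, gene strand, 5′ to 3′), at chr7:83649096-83649136 (minus) for SEMA3E, chr7:80922381-80922421 (minus) for SEMA3C, chr15:90184850-90184890 (plus) for SEMA4B and chr7:85187220-85187260 (minus) for SEMA3D.
SEMA3E: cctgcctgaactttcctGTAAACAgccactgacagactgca
SEMA3C: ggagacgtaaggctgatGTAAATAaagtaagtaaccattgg
SEMA4B: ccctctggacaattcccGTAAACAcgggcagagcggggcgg
SEMA3D: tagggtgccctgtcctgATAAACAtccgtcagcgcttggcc
A match is a description of the letters and not a measured binding site.

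Of the 7 secreted class 3 semaphorins 5 fell, SEMA3D rose and SEMA3G did not pass. SEMA3F, a neuropilin-2 ligand known to repel endothelial and tumour cells, had signals of 368 and 368 in FOXC1 cells, against 958 and 1035 in vector cells. The FOXC1 arrays lay far below both vector arrays, a 2.63-fold fall (log2 -1.40 ± 0.07 SE, limma adjusted p = 1.40e-12). SEMA3B, which like SEMA3F lies in a region of the short arm of chromosome 3 often lost in carcinomas, had 381 and 368 in FOXC1 cells, against 708 and 685 in vector cells. It fell 1.83-fold (log2 -0.87 ± 0.07 SE, limma adjusted p = 6.03e-09), again with groups well apart. SEMA3E, which can bind plexin D1 without a neuropilin, had 93.4 and 112 in FOXC1 cells, against 175 and 181 in vector cells. It was dim in both groups, and its 1.64-fold fall (log2 -0.71 ± 0.12 SE, limma adjusted p = 5.35e-05) was log2 -0.79 with an offset of 1 and log2 -0.54 with an offset of 64.

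Smaller falls were seen in 2 further class 3 genes. SEMA3C, a cue of cardiovascular development that is also studied in tumour growth, had 2432 and 2534 in FOXC1 cells, against 3314 and 3330 in vector cells (log2 -0.42 ± 0.04 SE, limma adjusted p = 1.82e-08). SEMA3A, the classic collapsin that acts through neuropilin-1 and plexin A receptors, had 2181 and 2146 in FOXC1 cells, against 2836 and 2793 in vector cells. Its groups were also apart, with a 1.30-fold fall (log2 -0.38 ± 0.04 SE, limma adjusted p = 1.44e-07). SEMA3D moved the other way by a small amount (log2 0.15 ± 0.05 SE, adjusted p = 0.0411). That call was lost without FOXC1 replicate 1 (log2 0.12), without vector replicate 1 (log2 0.14) and without vector replicate 2 (log2 0.15). It was also lost with median centring (adjusted p = 0.254), without a variance trend (0.0846) and in a fit over all rows (0.0811).

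Transmembrane class 4 semaphorins were split, with 2 of 5 lower and SEMA4A higher. SEMA4B had 1034 and 948 in FOXC1 cells, against 1641 and 1658 in vector cells. It fell 1.66-fold (log2 -0.73 ± 0.05 SE, limma adjusted p = 8.53e-10). SEMA4D, the plexin B1 ligand that tumour cells shed and that promotes vessel growth, had 599.7 and 548 in FOXC1 cells, against 950.4 and 963 in vector cells. Its fall was 1.65-fold (log2 -0.72 ± 0.07 SE, limma adjusted p = 2.06e-08), with no overlap of the groups. SEMA4D was the only member with a second probe set. That dimmer one had 207 and 226 in FOXC1 cells, against 238 and 229.9 in vector cells, and did not pass (log2 -0.10 ± 0.10 SE, adjusted p = 0.463), so the 2 probe sets of SEMA4D disagree, and their average gave log2 -0.41. SEMA4A, a ligand of plexins that also acts in immune cells, rose by log2 0.28 ± 0.09 SE (adjusted p = 0.0171). Its call was lost without FOXC1 replicate 2 (log2 0.20), without vector replicate 1 (log2 0.29) and without vector replicate 2 (log2 0.27). Quantile normalization (adjusted p = 0.0534), a fit without a variance trend (0.0533) and a fit over all rows (0.0686) also ended it. SEMA4G did not pass but was called lower after median centring (adjusted p = 0.0282) and quantile normalization (0.0294). SEMA4F did not pass either, and SEMA4F was at log2 0.04 (95% interval -0.11 to 0.19).

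The largest rise of the family was in a class 5 semaphorin, a membrane protein with thrombospondin repeats. SEMA5A had signals of 1674 and 1782 in FOXC1 cells, against 481 and 476 in vector cells. Both FOXC1 arrays lay far above both vector arrays, a 3.53-fold rise (log2 1.82 ± 0.06 SE, limma adjusted p = 8.43e-16), which ranked 52 among all 18417 genes by size of change. Its paralog SEMA5B did not follow, with 876 and 987 in FOXC1 cells, against 902 and 849.8 in vector cells, and log2 0.09 (95% interval -0.05 to 0.22). Without FOXC1 replicate 1 SEMA5B passed (log2 0.17, adjusted p = 0.0441).

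Class 6 transmembrane semaphorins, ligands of A-type plexins, fell in 3 of 4. SEMA6D had 131 and 138 in FOXC1 cells, against 208 and 171 in vector cells. It was dim, its fall was 1.36-fold (log2 -0.44 ± 0.11 SE, limma adjusted p = 0.00461), and the call was lost without vector replicate 1 (log2 -0.31, adjusted p = 0.124). SEMA6A, also dim, was at log2 -0.33 and lost its call without FOXC1 replicate 2 (log2 -0.28), without vector replicate 2 (log2 -0.30) and over all rows (adjusted p = 0.0557). SEMA6B was at log2 -0.16 and lost its call without vector replicate 2 (log2 -0.14) and without a variance trend (adjusted p = 0.0658). SEMA6C did not pass. The GPI-anchored SEMA7A, which binds plexin C1 and beta1 integrins, had 3916 and 3635 in FOXC1 cells, against 4838 and 4779 in vector cells. It fell 1.27-fold (log2 -0.35 ± 0.04 SE, limma adjusted p = 1.23e-07), and the groups did not overlap.

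Over all 19 semaphorins, 14 passed (73.7%, beside 31.4% of all genes) and 11 of them were lower (57.9%, beside 15.5%). Their median log2 change was -0.33, beside 0.03 over all genes. Of the 11 that fell, SEMA3E, SEMA6A and SEMA6D were dim, and the other 8 lay above the dim limit. Whether more semaphorins fell than other genes do was not tested.

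**Figure D2:**
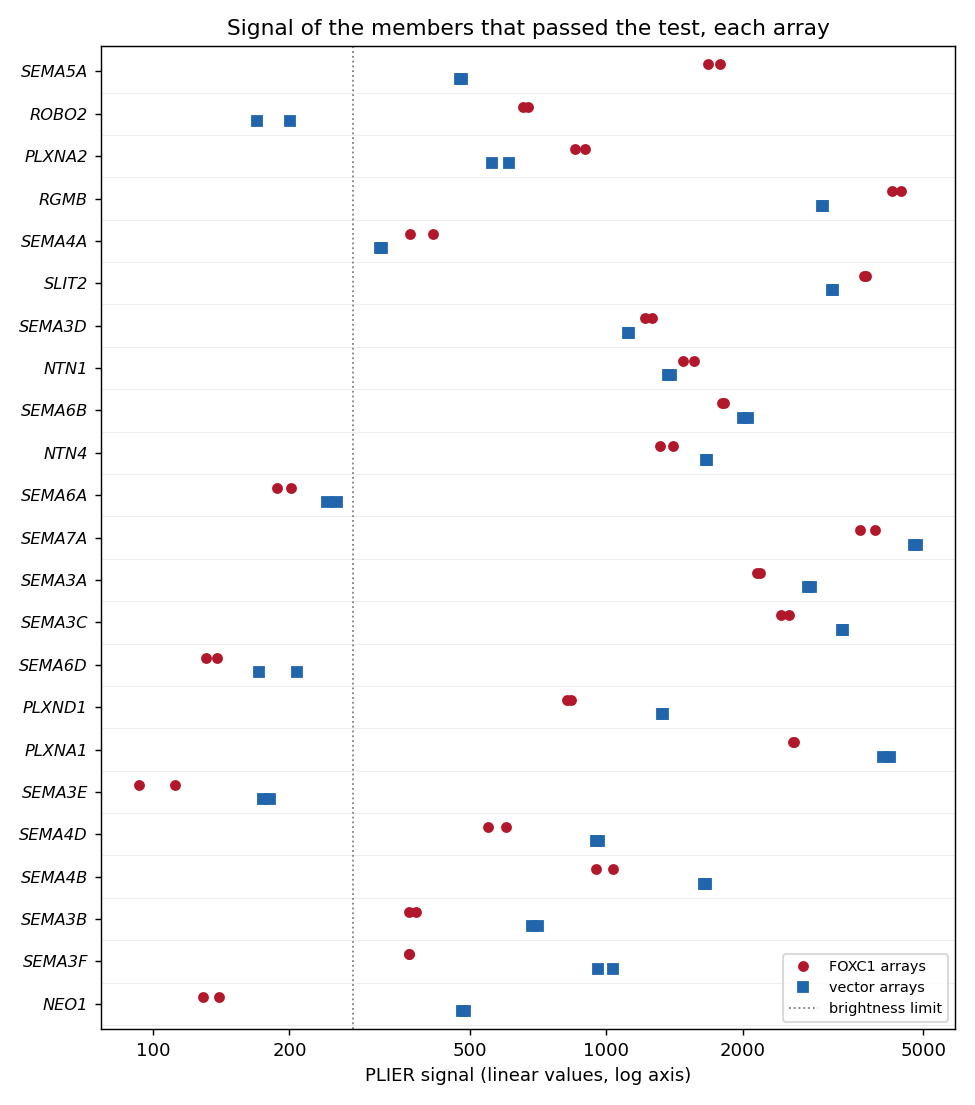
PLIER signal on each array (horizontal log axis) for the 23 members that passed, ordered by log2 change, with red circles for the 2 FOXC1 arrays above blue squares for the 2 vector arrays and the dotted line at the dim limit of 277. The FOXC1 and vector arrays do not overlap in these 23 genes, which were selected by the test on the same arrays. Among all genes 63.5% do not overlap. The widest gaps are in SEMA5A, ROBO2, NEO1 and SEMA3F.

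Of the 9 plexins, the semaphorin receptors, 3 passed. That is 33.3%, near the 31.4% of all genes and below the 38.9% of genes above the dim limit, where all 9 plexins lay. PLXNA1, a receptor for class 3 and class 6 semaphorins, had 2589 and 2581 in FOXC1 cells, against 4222 and 4068 in vector cells. It fell 1.60-fold (log2 -0.68 ± 0.04 SE, limma adjusted p = 3.43e-12), far beyond the gap between arrays of a group. PLXND1, the SEMA3E receptor of the vessel wall, had 838 and 818 in FOXC1 cells, against 1335 and 1324 in vector cells. Its fall was 1.59-fold (log2 -0.67 ± 0.06 SE, limma adjusted p = 3.71e-09). PLXNA2 went the opposite way to PLXNA1, with 896 and 854 in FOXC1 cells, against 612 and 559 in vector cells. PLXNA2 rose 1.48-fold (log2 0.57 ± 0.07 SE, limma adjusted p = 9.83e-07), and the 2 groups did not overlap.

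The other plexins did not pass. PLXNB2, a receptor of class 4 semaphorins, had 3960 and 3996 in FOXC1 cells, against 3789 and 3760 in vector cells, and its difference of log2 0.08 (95% interval 0.01 to 0.14) had an adjusted p of 0.0906. It passed when arrays were centred on the named probe sets (log2 0.10, adjusted p = 0.0165). PLXNB3 was at log2 -0.10 (95% interval -0.24 to 0.04) and PLXNA3 at log2 0.06 (95% interval -0.08 to 0.21). For PLXNC1, the SEMA7A receptor, the limma estimate was log2 -0.19 (95% interval -0.39 to 0.01). It passed as lower without FOXC1 replicate 2 (log2 -0.30, adjusted p = 0.0309) and with median centring (adjusted p = 0.0418). PLXNA4 and PLXNB1 did not pass in the main fit or in the alternatives.

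In the netrin family 4 of 14 genes passed (28.6%, beside 31.4% of all genes), and the largest change was in a receptor. NEO1, neogenin, a DCC relative that binds netrins and repulsive guidance molecules, had 129 and 139.6 in FOXC1 cells, against 487 and 481 in vector cells. Both FOXC1 arrays lay below the dim limit, and the fall was 3.33-fold on the offset scale (log2 -1.73 ± 0.09 SE, limma adjusted p = 4.34e-12). With the FOXC1 signal this low, the size of the fold depends on the offset, at log2 -1.84 with an offset of 1 and log2 -1.47 with an offset of 64. RGMB, a GPI-anchored ligand of neogenin that also acts as a co-receptor for bone morphogenetic proteins, had 4473 and 4262 in FOXC1 cells, against 2984 and 3000 in vector cells. RGMB rose 1.46-fold (log2 0.54 ± 0.04 SE, limma adjusted p = 1.01e-10), so that ligand and receptor moved in opposite directions.

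Of the 4 secreted netrins NTN4 fell and NTN1 rose. NTN4, a netrin of basement membranes that binds laminin, fell by log2 0.29 (SE 0.05, limma adjusted p = 9.5e-05). NTN1, the founding netrin, was at log2 0.14 ± 0.05 SE (adjusted p = 0.0381). Its call was lost without FOXC1 replicate 2 (log2 0.10), without vector replicate 1 (log2 0.13) and without vector replicate 2 (log2 0.15). Median centring (adjusted p = 0.261), a fit without a variance trend (0.117) and a fit over all rows (0.0914) ended it as well. NTN3 had 1652 and 1653 in FOXC1 cells, against 1556 and 1537 in vector cells, and did not pass (log2 0.09, 95% interval -0.0016 to 0.19, adjusted p = 0.133). It passed with arrays centred on the named probe sets (log2 0.12, adjusted p = 0.0344). NTN5 and the membrane-anchored NTNG1 and NTNG2 did not pass, with NTNG2 at log2 -0.01 (95% interval -0.15 to 0.14).

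None of the 5 UNC5 genes passed limma at an adjusted p of 0.05 in the main fit or in the alternatives, and 1 of them, UNC5CL, had an unadjusted p under 0.05. UNC5CL is a relative of the UNC5 receptors that is not known to bind netrin. UNC5D had 994 and 1104 in FOXC1 cells, against 1026 and 964 in vector cells (log2 0.07, 95% interval -0.05 to 0.20). UNC5B, the UNC5 receptor of endothelium, had 711 and 760.1 in FOXC1 cells, against 664 and 705 in vector cells (log2 0.10, 95% interval -0.04 to 0.24). DCC, the attractive netrin receptor, was dim in both groups and did not pass, so that these arrays give little on its level.

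Slits and robos gave 2 rises and 0 falls among 5 genes (40%, beside 31.4% of all genes). All 5 lay above the dim limit, where a similar 38.9% of all genes passed. ROBO2, a Slit receptor of the immunoglobulin superfamily, had 656 and 673 in FOXC1 cells, against 201 and 169 in vector cells. The vector arrays lay below the dim limit and the FOXC1 arrays well above it, a 3.40-fold rise on the offset scale (log2 1.76 ± 0.09 SE, limma adjusted p = 1.96e-12). With the vector signal this low, its size depends on the offset, at log2 1.84 with an offset of 1 and log2 1.55 with an offset of 64. SLIT2, a secreted ligand of Robo receptors, had a limma log2 change of 0.23 ± 0.03 SE (adjusted p = 1.50e-05). SLIT1 and SLIT3 did not pass.

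ROBO1, the neighbour of ROBO2 on chromosome 3, had 2398 and 2514 in FOXC1 cells, against 2654 and 2605 in vector cells. It did not pass (log2 -0.10, 95% interval -0.18 to -0.01, adjusted p = 0.0713), although both FOXC1 arrays lay below both vector arrays. It passed as lower without FOXC1 replicate 2 (log2 -0.13, adjusted p = 0.0172), in a fit with the replicate block (0.0334), after quantile normalization (0.0499) or median centring (0.035), and when the dimmer 50% of probe sets were dropped (0.0415). Of the remaining Robo genes, which were not members, ROBO4 fell by log2 0.58 (adjusted p = 2.35e-07), and ROBO3 did not pass.

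**Figure D3:**
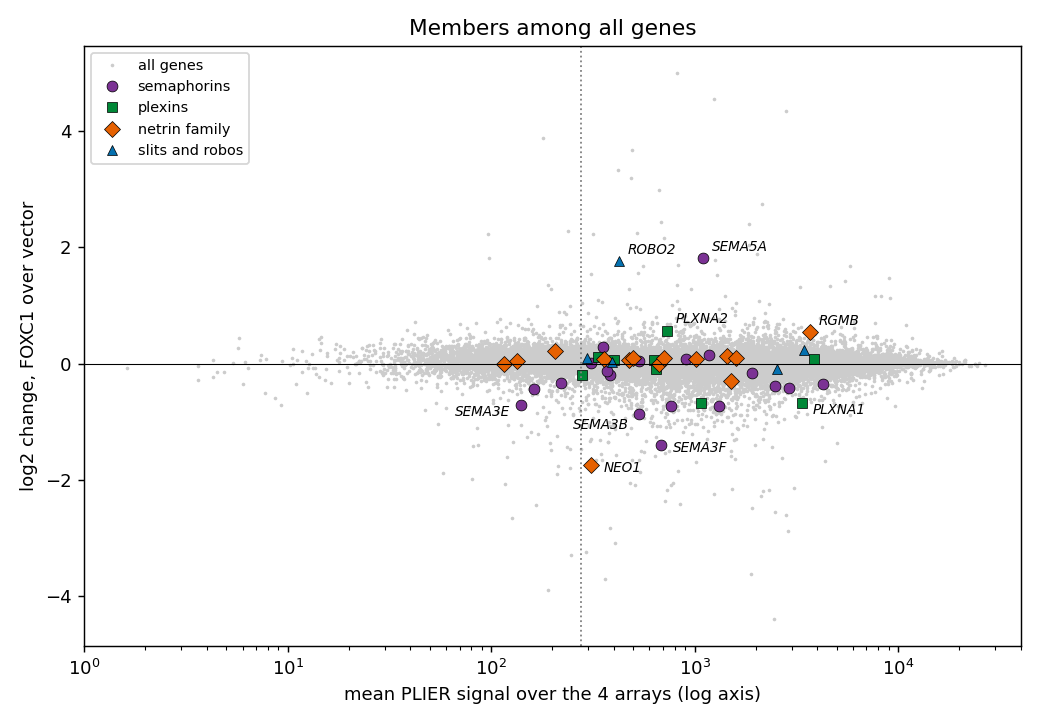
Log2 change of FOXC1 over vector cells (vertical axis) against mean PLIER signal (horizontal log axis) for all 18417 genes in grey and the 47 members in colour by family, with the dotted line at the dim limit of 277. SEMA5A and ROBO2 are the highest members and NEO1 and SEMA3F the lowest, while 24 members did not pass. Over all genes the changes reach from -4.39 to 4.99, so other genes lie further out.

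The members were also counted by role. Of 29 ligands 18 passed (62.1%), 6 higher and 12 lower. Of 18 receptors 5 passed (27.8%), 2 higher and 3 lower, which is near the 31.4% of all genes. The difference between those shares was not tested. All 19 semaphorins, of which 14 passed, count as ligands, so the ligand share mostly repeats theirs. The gap between the 2 arrays of a group had a median over members of 0.07 log2 units in FOXC1 cells and 0.03 in vector cells. The widest gaps were 0.27 for SEMA3G in FOXC1 cells and 0.26 for SEMA6D in vector cells.

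Members that passed were also set beside their 5 nearest measured genes on each side along the chromosome. NEO1 fell while its 10 neighbours had a median log2 change of 0.11, and 1 of them, CD276, passed as lower. SEMA5A rose with a neighbour median of 0.07, and 2 of its neighbours, FASTKD3 and MTRR on the same side, passed as higher. ROBO2 rose with a neighbour median of -0.09 and no neighbour passing as higher. SEMA3F and SEMA3B are separated by 3 measured genes, GNAT1, SLC38A3 and GNAI2. Of these GNAI2 passed as lower with log2 -0.08, and GNAT1 and SLC38A3 did not pass. SEMA3E, SEMA3A and SEMA3D follow each other on chromosome 7 with no measured gene between them, and the first pair fell while SEMA3D was at log2 0.15. SEMA4D had the most neighbours called in its own direction, 5 of 10, while its neighbour median was -0.05.

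**Figure D4:**
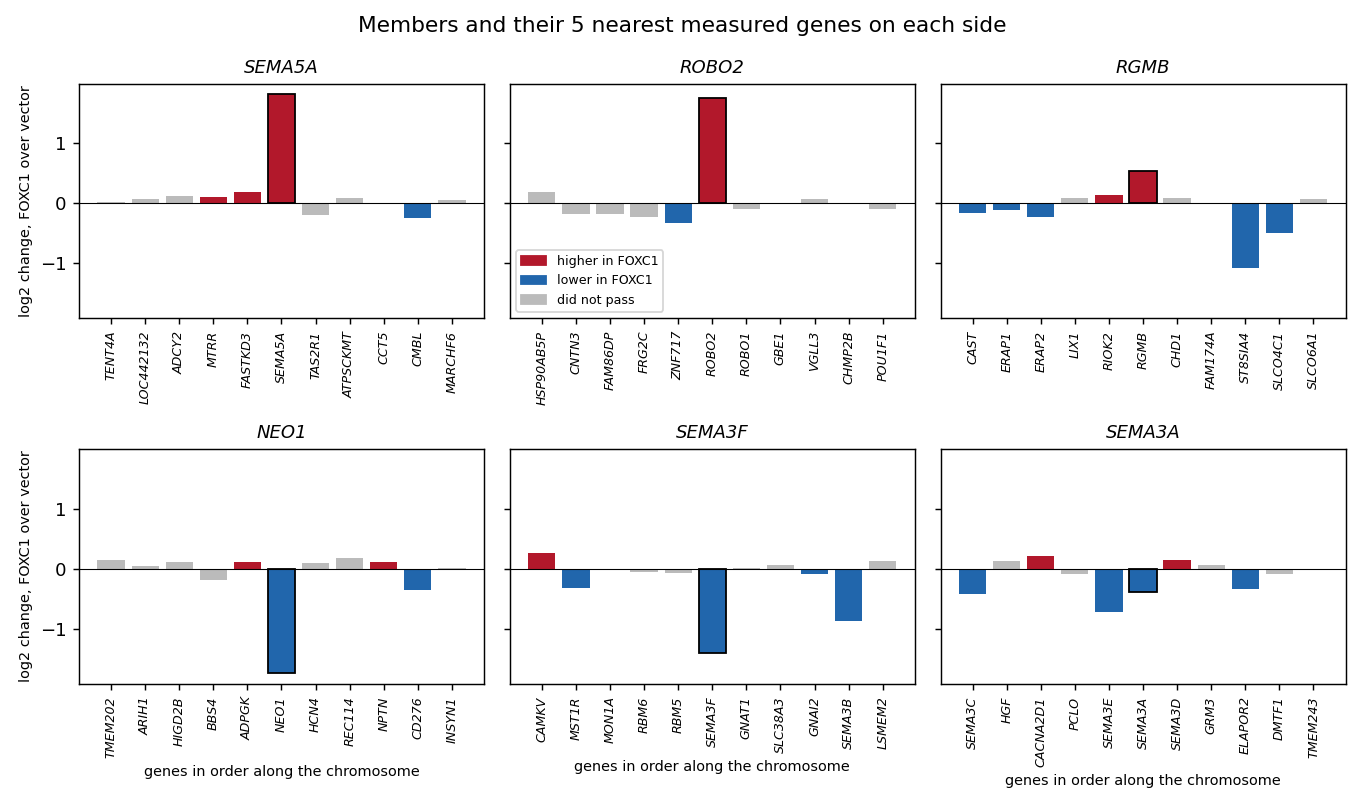
Log2 change of FOXC1 over vector cells (vertical axis) for SEMA5A, ROBO2, RGMB, NEO1, SEMA3F and SEMA3A (outlined bars) and their 5 nearest measured genes on each side in chromosome order, red for higher, blue for lower and grey for genes that did not pass. The member's bar is the longest in the panels of SEMA5A, ROBO2, NEO1 and SEMA3F, whereas ST8SIA4 at -1.07 is longer than RGMB at 0.54 and SEMA3E at -0.71 is longer than SEMA3A at -0.38.

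Partners of these families were taken from 4 lists with 79 genes, of which 72 were measured, and 32 passed, 7 higher and 25 lower (44.4%, beside 31.4% of all genes). By direction, 9.72% of them rose, beside 15.9% of all genes, and 34.7% fell, beside 15.5% of all genes, a difference that was not tested. Their median log2 change was -0.05, beside 0.03 over all genes. Above the dim limit lay 69 of the 72, where 38.9% of all genes passed in either direction. The 15.5% that fell is over all genes, dim ones included. Of 12 co-receptors and other receptors of semaphorins 5 fell and MET rose (50%). L1CAM, an adhesion molecule that takes part in SEMA3A signalling with neuropilin-1, had 821 and 827 in FOXC1 cells, against 1643 and 1677 in vector cells. L1CAM fell 1.99-fold (limma adjusted p = 3.32e-12). The VEGF receptor KDR fell by log2 0.81, and the L1 family member NRCAM by log2 0.40. KDR had 225.5 and 253 in FOXC1 cells, below the dim limit, so the size of its fall depends on the offset. Neuropilin-1, NRP1, had 4071 and 4223 in FOXC1 cells, against 5307 and 5392 in vector cells, a 1.29-fold fall, and NRP2 did not pass (log2 -0.14, 95% interval -0.29 to 0.02).

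Of 24 genes of signalling below plexins 7 fell and 3 rose (41.7%, near the 38.9% of all genes above the dim limit). DPYSL2, the collapsin response mediator that SEMA3A signalling acts on, had 4660 and 4655 in FOXC1 cells, against 7441 and 7345 in vector cells. Its fall was 1.59-fold (log2 -0.66 ± 0.03 SE, limma adjusted p = 7.11e-14). SH3BP1, a GTPase-activating protein for Rac that binds plexin D1, rose 1.52-fold. The actin regulator LIMK1 fell 1.32-fold, and the kinase FYN fell 1.32-fold.

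Of 15 Slit and Robo partners, all above the dim limit, 6 fell and 0 rose. That is 40%, near the 38.9% of all genes above the limit that passed in either direction. The share that fell was 15.5% over all genes, dim ones included, and is not given for genes above the limit alone. Besides ROBO4 these included the heparan sulfate proteoglycan SDC3, which fell 1.69-fold, the kinase ABL1, which fell 1.29-fold, and the deubiquitinase USP33, which fell 1.18-fold. Of 21 partners of netrins and repulsive guidance molecules 7 fell and 3 rose (47.6%). MYO10, an unconventional myosin of filopodia that carries netrin receptors, had 5040 and 5045 in FOXC1 cells, against 3678 and 3622 in vector cells, a 1.38-fold rise. DSCAM, a further netrin receptor, was at log2 -0.31, BCAR1 at log2 -0.29 and DOCK1 at log2 -0.28, and all 3 passed. RGMA, the paralog of RGMB, did not pass (log2 -0.04, 95% interval -0.19 to 0.11).

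Marker lists of other cell types were read beside these results, since guidance genes are also expressed in nerve, vessel and stroma. In the neuron and glia list 2 of 7 rose and 0 fell, with summed signals of 4345 and 4434 in FOXC1 cells, against 4003 and 4115 in vector cells. In the endothelial list PECAM1 fell and 0 of 6 rose, with sums of 3056 and 3133 in FOXC1 cells, against 3537 and 3745 in vector cells. In the fibroblast list DCN, which was dim, rose and 0 of 6 fell, with sums of 1765 and 1867 in FOXC1 cells, against 1763 and 1737 in vector cells. In the leukocyte list CD68 and the dim PTPRC rose among 5. CD68 alone had 9096 and 8748 in FOXC1 cells, against 8505 and 8460.3 in vector cells, and made up most of the list's sums of 10390 and 10072 in FOXC1 cells, against 9664 and 9730 in vector cells. Luminal epithelial markers fell in 4 of 8, with sums of 6858 and 6664 in FOXC1 cells, against 8044 and 7877 in vector cells. The share that passed was 28.6% in the neuron and glia list and 16.7% in both the endothelial and fibroblast lists. It was 40% in the leukocyte list and 50% in the luminal list. Of all genes 31.4% passed, and 38.9% of those above the dim limit. No defining marker was at 0 on these arrays, where a probe set without transcript still gives signal, and the part of such cells in the members' changes was not tested.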

How the data were processed

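RNA of 4 MDA-MB-231 cultures was measured, 2 transfected with FOXC1 and 2 with vector. Per the labels, the authors amplified 100 ng of total RNA for Affymetrix whole-transcript arrays, and per the submitters' processing notes they summarised probes with PLIER in Affymetrix Expression Console. The authors deposited 1 linear intensity per probe set and array. How PLIER was set, and in which version, the labels do not say. Of 33297 probe sets 21214 carried a gene symbol in GEO's platform annotation, 19460 of them exactly 1. Values were used as deposited, 16 was added before log2, and limma 3.58.1 (R 4.3.3) was run on the 21214 probe sets (eBayes with a trend, two-sided, 2 residual and 18.1 prior degrees of freedom) with Benjamini-Hochberg adjustment over all of them. In data simulated for this comparison 100% of 50 changes of log2 1 and 88% of those of log2 0.5 were recovered. Of those of log2 0.25, 50% were recovered, and 1 unchanged probe set was called. Only 200 of the 21214 probe sets were changed there, with normal noise of an averaged size per bin of signal. In the real data 31.4% of genes passed, so these rates need not carry over.

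Members and gene lists were chosen with earlier results of these data known. The text gives each array's value for up to 16 members that passed, the largest changes first, and values for up to 10 members that did not, the highest signals first, and up to 4 genes per partner list. Other members named (SEMA6C, SEMA3G, PLXNC1, UNC5CL and DCC among them) complete small groups, and ROBO3, NRP2, RGMA and the chromosomal neighbours were named after their values were seen. Arrays with the same replicate number did not deviate together (correlation of replicate differences across probe sets -0.01), so the design without a block is the reported one. Gene order came from RefSeq on GRCh38.p14 and promoters from RefSeq on the same build.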

Additional observations from a re-analysis of the deposited data

How the results depend on the processing

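Settings varied were the offset (1 or 64), the dim filter (25 or 50% of probe sets), quantile scaling, 2 median centrings, the variance moderation (untrended or robust), the replicate block, each array left out, all rows, averaged probe sets and an adjusted p of 0.10. Of the 23 members that passed, 17 passed with the same direction in each of the up to 16 alternatives that measured them, 6 lost the call in at least 1 and 0 changed sign. The replicate block gave 8 members higher and 16 lower, 1 slit or robo lower (ROBO1) and 3339 genes higher and 3099 lower, and it changed no other member's call. Above the 50th percentile, which removes dim genes, 5 members were higher and 9 lower, with 5 semaphorins lower, 0 plexins higher, 1 netrin family gene lower and 1 slit or robo higher and 1 lower. Without a variance trend 5 members, 1 semaphorin and 1 netrin family gene were higher, with 1461 genes higher and 1790 lower. Over all rows 5 members, 1 semaphorin, 1 netrin family gene and 1858 genes were higher. Median centring gave 1739 genes and 1 netrin family gene higher and 1 slit or robo lower, centring on named probe sets 2 plexins higher, quantile normalization 1 slit or robo lower, and an adjusted p of 0.10 gave 2 plexins higher and 1 slit or robo lower. Leaving out each array in turn gave 5 to 8 members higher, 13 to 16 lower, 1 to 3 semaphorins higher, 9 to 11 lower, 2 to 3 plexins lower, 1 to 2 netrin family genes higher, 0 to 1 slit or robo lower, and 1913 to 2951 genes higher and 2059 to 3142 lower. Of the partner lists, 3 of 5 fitted semaphorin co-receptors were lower and 1 of 17 fitted plexin signalling genes higher above the 50th percentile. Without a variance trend 1 plexin signalling gene was higher and 4 lower, and 1 netrin partner was higher. Leaving out arrays gave 1 to 2 semaphorin co-receptors higher. With 1 array left in a group, that array is assumed to vary like the other group.

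Members that did not pass changed sign around 0 in some settings. DCC was at -0.018 and SLIT3 at -0.012 with quantile normalization, and SEMA3G at -0.048. With median centring SEMA3G was at -0.028 and SLIT3 at -0.0051. With centring on named probe sets NTNG2 was at 0.016 and UNC5C at 0.020. Leaving out each array in turn gave -0.021 to 0.12 for DCC, -0.081 to 0.066 for NTNG2, -0.12 to 0.15 for SEMA3G, -0.016 to 0.21 for SLIT1, -0.012 to 0.085 for SLIT3, -0.060 to 0.054 for UNC5C and -0.00050 to 0.15 for UNC5D. The cause of these changes was not tested. Counting UNC50, leaving out UNC5CL or keeping only members above the dim limit, all chosen after seeing the data like the centring on named probe sets, gave 8 members higher, with 15, 15 and 12 lower. Low signals limit what DCC, UNC5C, UNC5CL, SEMA3E, SEMA6A and SEMA6D can show in both groups, NEO1 in FOXC1 cells and ROBO2 in vector cells. The dim limit is a percentile and not a measured background, so a signal above it does not by itself show a transcript. The endothelial marker CDH5 had 1222 and 1193 in FOXC1 cells, against 1178 and 1264 in vector cells. SOX10, of the neuron and glia list, had 1096 and 1184, against 1022 and 1042. UNC5D, SEMA5B and, in FOXC1 cells, SEMA3F and SEMA3B lay below these signals. Whether any of them was transcribed was not tested.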
